A study of Mus musculus with 4 samples.

Results

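The Enpep Asb4 cells of the mouse ovary were a mesenchymal population of 3360 cells among 47782 cells that passed the cell filter, or 7.03% of them. A cell was a member when it held at least 1 transcript of at least 4 of the 8 genes Asb4, Enpep, Lamc3, Hhip, Tmem100, Smim41, Clca3a1 and Spats2l. Cells with granulosa, androgen-producing theca, interstitial or cycling transcripts were left out, by limits on Inhba and Amh (fewer than 10 transcripts of both per 10000), on Cyp17a1 (fewer than 3 transcripts), on 4 interstitial genes (fewer than 3 detected) and on 4 cycling genes (fewer than 2 detected). The members therefore stood apart in these genes by construction, and their levels of them are a description. The cells came from whole ovaries of 8-week-old female mice of 1 litter, profiled as single cells by droplet sequencing. There were 2 libraries from Fosl2 flox/flox mice (F/F 1 and F/F 2), which carry LoxP sites around exons 2 to 4 of the transcription factor gene Fosl2 and no Cre, and 2 from mice labelled Cyp19a1-Cre; Fosl2 flox/flox (cKO 1 and cKO 2). Both groups thus share the floxed allele and differ in the Cre, whose Cyp19a1 (aromatase) promoter drives deletion in granulosa cells. Values of the 4 libraries are given throughout in the order F/F 1, F/F 2, cKO 1 and cKO 2.

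The ovarian follicle is wrapped in layers of mesenchymal cells. The inner layer, the theca interna, holds steroid-producing cells that make androgens from cholesterol under luteinizing hormone, and the outer layer and the stroma beyond it hold fibroblasts, smooth muscle-like cells and vessels. Granulosa cells inside the follicle secrete Hedgehog ligands, which bind the receptor Ptch1 on the surrounding mesenchyme, release Smo and act through the Gli transcription factors, and Ptch1, Gli1 and Hhip are themselves transcribed in response.

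F/F 2 stood apart from the other libraries. It held 24320 of the kept cells at a median of 3970 unique molecular identifiers (UMIs, 1 for each captured transcript), while the others held 7175 to 8780 cells at medians of 11380 to 12885 UMIs. Between 12 and 49 cell barcodes were shared by any pair of libraries. Fosl2 itself did not separate the groups. In the granulosa cells, where the Cre acts, it stood at 175, 175, 196 and 106 CPM (counts of UMIs scaled to 1000000 UMIs of those cells), so that cKO 1 lay above both F/F libraries. Where the counted 3′ ends lie relative to the flanked exons was not tested. The paper reports an immunoblot in which Fosl2 protein was depleted in granulosa cells of Fosl2cKO mice, a measure of protein and not of these transcripts. The direction of each comparison rests on the labels, and "the libraries labelled Fosl2cKO" is meant wherever cKO is written.

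The members numbered 565, 1428, 511 and 856 cells and held 7082110, 9082254, 8001259 and 12665188 UMIs. Their median depth was 10779, 4996, 13080 and 13280.5 UMIs per cell, and the median number of genes detected was 3575, 2360, 4172 and 4277.5. Requiring 4 of the 8 genes alone selected 872, 2413, 772 and 1512 cells, and the limits on other cell types and on cycling genes removed the rest. The limit on cycling genes, applied last, removed 176, 612, 193 and 419 cells. Many members sat close to the threshold. Exactly 4 of the 8 genes were detected in 27.3%, 42.2%, 28.0% and 23.5% of them, and all 8 in 8.50%, 2.17%, 9.98% and 10.7%. Just outside and just inside the threshold, cells with 3 genes had Ptch1 at 198, 279, 155 and 279 CPM and members with 4 had it at 274, 324, 212 and 374 CPM, which gives no sharp edge. Col1a2 was 930, 1232, 1278 and 1000 CPM with 3 genes, and 1372, 1392, 1461 and 1392 CPM with 4.

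The 8 genes that chose the cells belong to different functional families. Enpep is aminopeptidase A, the surface enzyme that trims angiotensin II. It stood at 300, 460, 298 and 420 CPM in the members and at 8.57, 20.4, 19.0 and 12.9 CPM in stromal fibroblasts, 4095 collagen-expressing cells with no more than 1 of the 8 genes. Asb4, an ankyrin repeat protein with a SOCS box of the kind that recruits ubiquitin ligases, was 322, 403, 410 and 187 CPM, with cKO 2 the lowest. Hhip, the decoy receptor that binds Hedgehog ligands, was 169, 252, 178 and 308 CPM. It was not particular to the members, since the androgenic theca cells (1363 cells with at least 3 Cyp17a1 UMIs) had it at 128, 102.5, 100.4 and 192 CPM. Others of the 8 genes were found there too, since all 8 summed to 499, 589, 340 and 778 CPM in those theca cells. The sum was 1863, 2072, 1593 and 1927 CPM in the members. Tmem100, a transmembrane protein that bone morphogenetic proteins (BMPs) induce through the receptor Alk1 in endothelium, was 436, 273, 193 and 377 CPM. Lamc3, a laminin chain, was 116, 141, 132 and 144 CPM. Spats2l ranged from 168 to 295 CPM, Smim41 from 122 to 142 CPM and Clca3a1 from 86.6 to 128 CPM.

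**Figure D1:**
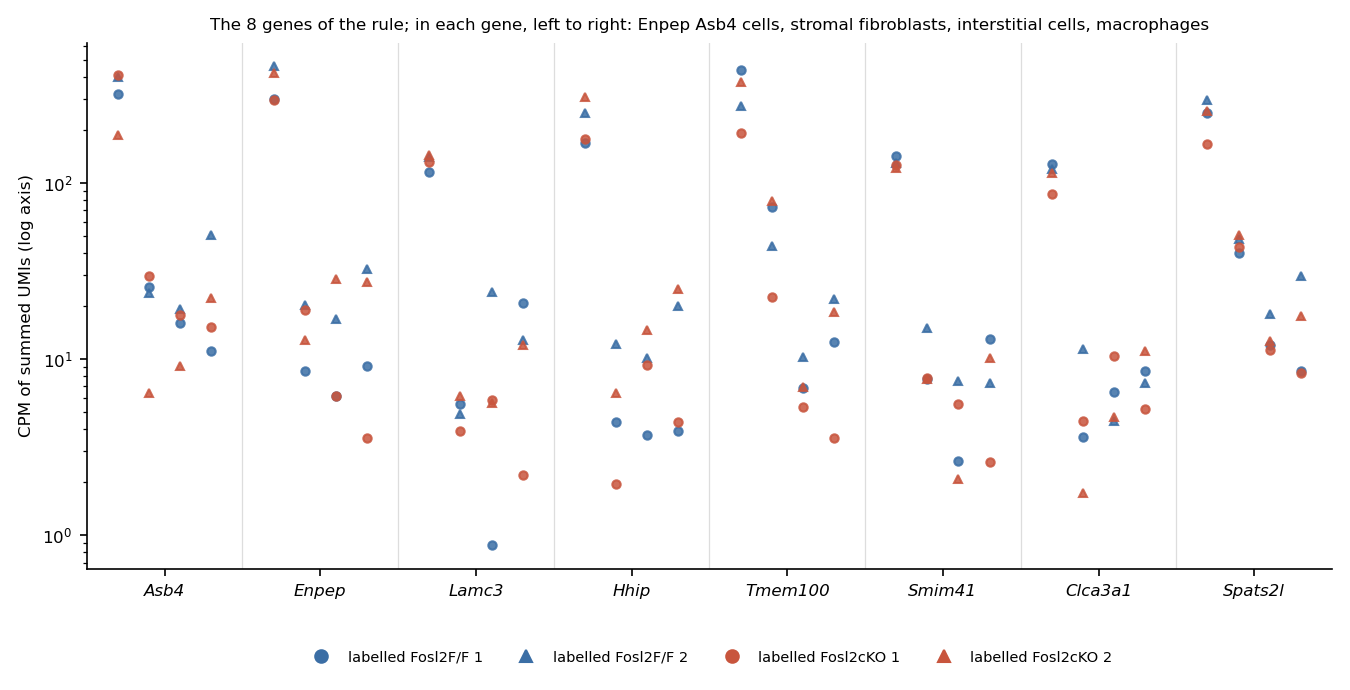
Level of the 8 genes that chose the cells, in CPM on a log axis, with 1 point for each library in the members, stromal fibroblasts, interstitial cells and macrophages. Enpep lies between 298 and 460 CPM in the members and between 8.57 and 20.4 CPM in stromal fibroblasts, a gap that the choice of cells fixes.

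At full depth, an Enpep UMI was found in 78.4%, 82.8%, 83.6% and 84.0% of the members, a Tmem100 UMI in 90.3%, 73.9%, 79.5% and 90.2%, and an Asb4 UMI in 60.0%, 52.4%, 61.8% and 54.9%. Macrophages, which should lack these genes, held a UMI of them in few cells, at most 8.2% for any of the 8 genes in any library, at median depths of 10476.5, 3277, 11644.5 and 9065 UMIs. Among members the 8 genes hardly varied together. The 28 pairwise correlations between them over cells lay between -0.091 and 0.190, and all of these cells had been chosen for holding several of the genes.

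Other genes followed the same cells without having been used to choose them. Against all other kept cells, the leading genes held several of the cell surface and the matrix. Tafa2, a secreted chemokine-like protein, was 61.6, 70.5, 40.9 and 72.2 CPM in the members against 3.91, 10.9, 5.0 and 7.83 CPM. Thbd, the thrombin receptor thrombomodulin, was 121, 130, 118 and 129 CPM against 9.61, 20.2, 14.0 and 23.7 CPM. Adcy7, an adenylate cyclase, was 128, 101.8, 93.1 and 153 CPM against 12.2, 17.4, 13.2 and 25.1 CPM. Egflam (pikachurin), a matrix ligand of dystroglycan, was 219, 246, 226 and 302 CPM against 24.5, 49.7, 29.6 and 60.6 CPM. Col25a1, Col26a1, Steap4, Ccn4, Rassf5, Nhsl2 and the integrin chain Itga8 were also among the 20 leading genes. These cells were selected by genes of the same cells, so no test was made of members against other cells.

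The name theca-stromal, which had been given to these cells, was checked against matrix and steroid-producing genes. The stromal fibroblasts had been chosen for at least 5 of 8 genes that include Col1a1, Col1a2, Col3a1, Dcn, Lum and Pdgfra, so their levels of these are in part set by that choice and are a description. Col1a2 stood at 1818, 1612, 1879 and 2027 CPM in the members against 1262, 1081, 1626 and 1151 CPM in stromal fibroblasts, and was higher in the members in every library. Col1a1 was 720, 734, 1263 and 760 CPM against 1269, 1146, 1718 and 864 CPM, lower in the members in every library, and Col3a1 was 1440, 1290, 1778 and 1475 CPM against 1763, 1462, 2882 and 1283 CPM, lower in 3 of 4. The small proteoglycan Dcn (decorin) was lower in the members, at 961, 610, 1084 and 771 CPM against 1514, 1749, 2530 and 1857 CPM, as was Lum (lumican), at 332, 225, 297 and 211 CPM against 623, 658, 909 and 665 CPM. Pdgfra, the receptor for platelet-derived growth factor that marks fibroblasts, was 207, 190, 350 and 286 CPM.

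Several steroid-producing genes stood no higher in the members than in macrophages in at least 3 of 4 libraries. Cyp11a1, the enzyme that cleaves the cholesterol side chain, was 113, 357, 171 and 144 CPM in the members. It was 265, 1543, 729 and 217 CPM in macrophages of the same libraries, which should lack it, and the members lay below them in each library. Hsd3b1, the next enzyme of the pathway, was 133, 249, 164 and 246 CPM against 312, 1005, 652 and 232 CPM in macrophages, with the members above them in cKO 2 alone. Interstitial cells, the steroid-producing cells outside follicles, had Cyp11a1 at 7834, 6687, 5081 and 6468 CPM and Hsd3b1 at 3250, 3536, 3542 and 4259 CPM. Star, which carries cholesterol into mitochondria, was 28.1, 78.3, 58.5 and 21.6 CPM in the members against 28.2, 218, 140 and 38.4 CPM in macrophages. Insl3, a hormone of theca interna cells, was listed at 0 in 3 libraries and at 0.158 CPM in cKO 2, where 2 UMIs were found. Cyp17a1, the androgen-forming enzyme, was 10.0, 10.8, 0.375 and 5.76 CPM, but members were limited to fewer than 3 UMIs of it and 88.1%, 94.3%, 99.6% and 92.5% of them held none. Scarb1, the receptor for high-density lipoprotein, was above the stromal fibroblasts in every library, at 225, 264, 208 and 241 CPM against 67.2, 154, 68.9 and 58.3 CPM, and above the macrophages in 3 of 4, at 117, 494, 152 and 77.6 CPM. Of the 16 genes of this list, 1 was above and 5 were below the macrophages in all 4 libraries, against 42.3% and 22.9% of all genes of at least 1 CPM in either. Against stromal fibroblasts, 6 were higher and 3 lower in all 4, where 22.1% and 25.0% of all genes were. The 16 genes summed to 1344, 2104, 1470 and 1568 CPM in the members. In stromal fibroblasts the sum was 1231, 2165, 1509 and 911 CPM, and in macrophages 1743, 5469, 3258 and 1384 CPM. How much of these sums came from RNA of other cells was not tested. The low level of Cyp17a1, and of genes that go with it, is in part set by the rule, since the limit on Cyp17a1 had removed 89, 159, 11 and 197 cells. The 8 selecting genes also summed to 499, 589, 340 and 778 CPM in androgenic theca cells, against 169, 180, 133 and 171 CPM in stromal fibroblasts, which were limited to 1 of the 8. These values do not settle how the cells relate to the theca. The members are called Enpep Asb4 cells here, after genes of the rule that chose them.

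**Figure D2:**
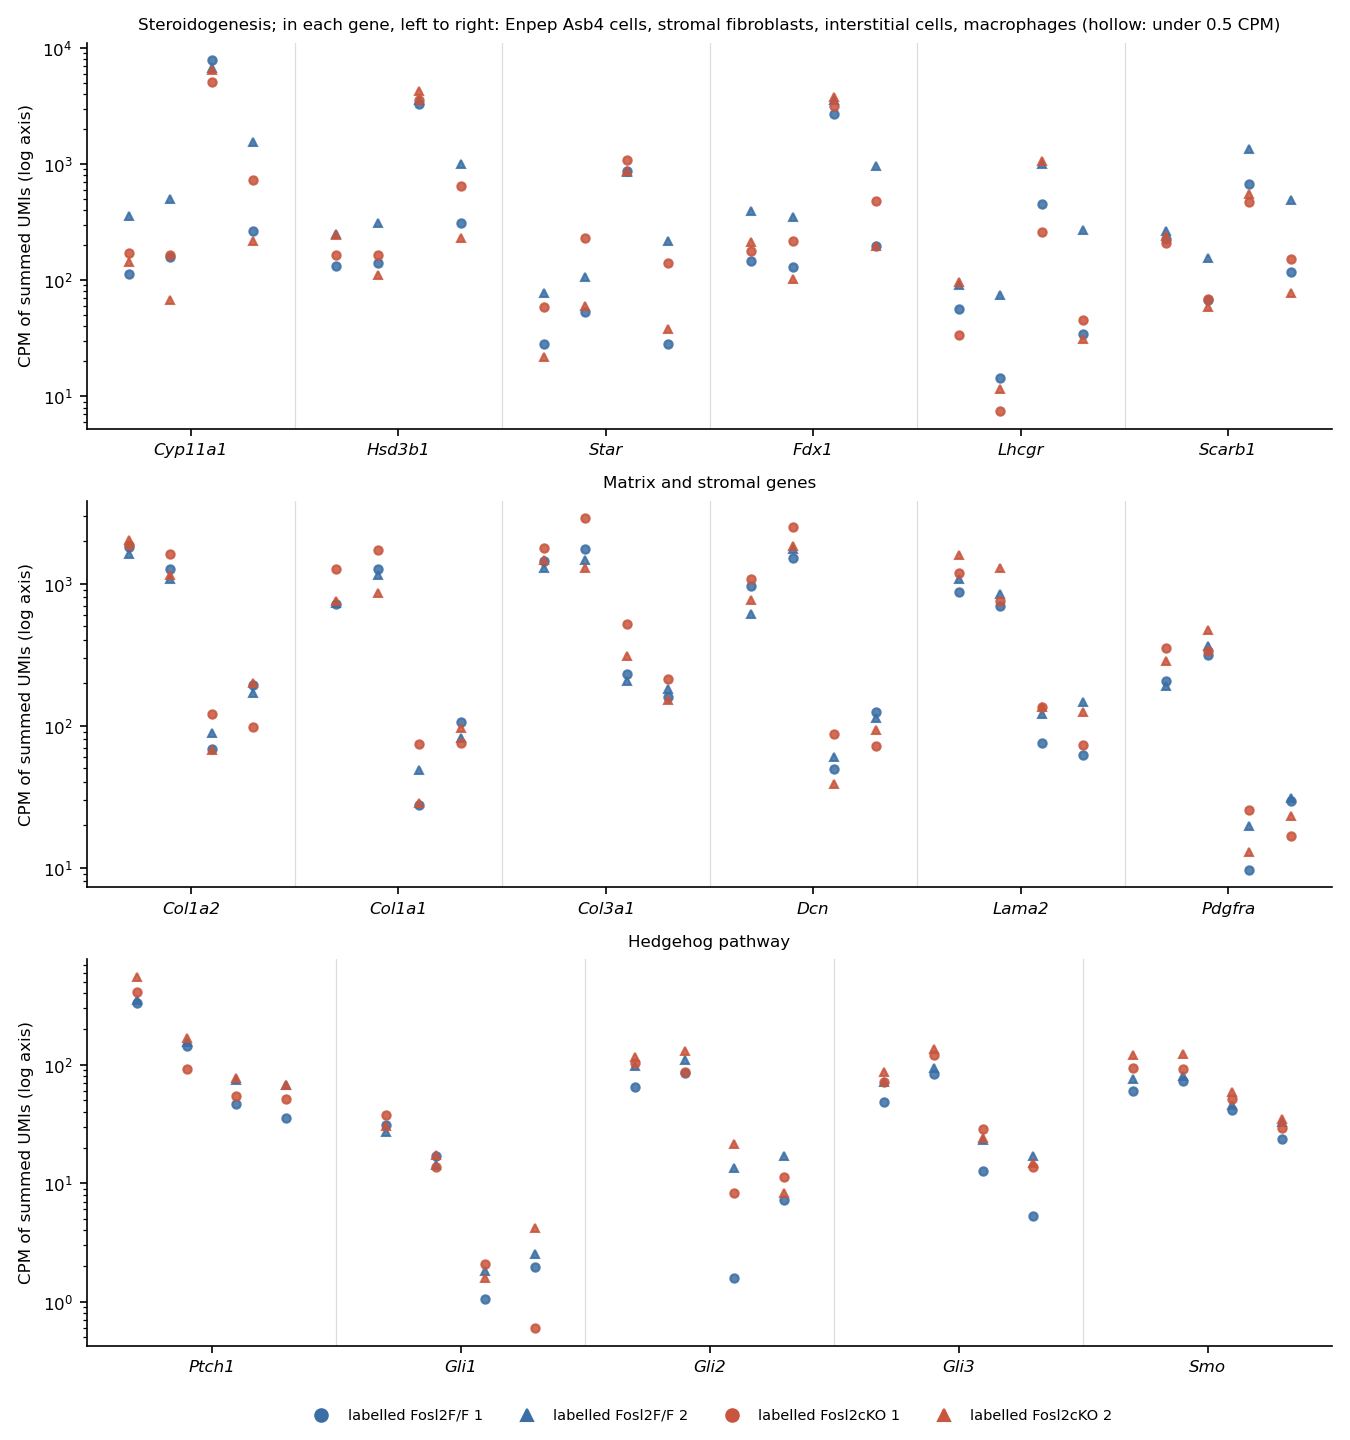
Levels in CPM (log axis) of steroid-producing, matrix and Hedgehog genes in the members, stromal fibroblasts, interstitial cells and macrophages, with 1 point for each library and hollow points for values under 0.5 CPM. The members have Cyp11a1 at 113 to 357 CPM, under the macrophages of the same library in each case, and Col1a2 at 1612 to 2027 CPM.

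Of the genes that separated members from stromal fibroblasts, Rgs5, a signalling regulator typical of pericytes, was 148, 139, 59.7 and 151 CPM in the members against 8.57, 19.9, 6.38 and 5.95 CPM. It was carried by few of them, since a subcluster of 119 members described further on held it at 3667, 2638, 3000 and 3140 CPM, and Rgs5 was also among 5 genes of which stromal fibroblasts could hold no more than 1. Cd24a was 150, 120, 113 and 85.2 CPM against 6.63, 18.1, 15.2 and 7.20 CPM. In the other direction, Enpp2 (autotaxin, which makes lysophosphatidic acid) was 10.7, 20.7, 35.7 and 21.1 CPM against 164, 142, 225 and 157 CPM, and Aox3 was 2.12, 6.28, 5.75 and 6.71 CPM against 40.6, 62.3, 73.5 and 80.4 CPM. The complement gene C3, the axon guidance gene Slit2, Fam180a, Tnfrsf19, Nkain3 and Pcdh9 were likewise among the 10 genes most in favour of stromal fibroblasts. Of 15025 genes with at least 1 CPM in either population, 22.1% were higher in the members in all 4 libraries and 25.0% were lower in all 4. Against interstitial cells, Gpc3, a proteoglycan, was 300, 334, 351 and 349 CPM in the members and 9.50, 21, 17.2 and 13.3 CPM in the interstitial cells. Against androgenic theca cells, the Notch target Heyl was 74.1, 79.1, 79.5 and 83.7 CPM in the members and 2.77, 4.72, 0 and 1.69 CPM, and Col15a1 was 157, 166, 252 and 219 CPM and 8.30, 11.2, 3.72 and 4.90 CPM. Contractile genes (Acta2, Myh11, Tagln) and Pdgfrb were also among the 10 genes most in favour of the members there. They were not particular to the members. The 9 pericyte and smooth muscle markers summed to 1650, 1588, 1991 and 1267 CPM in the members and to 3776, 1903, 2865 and 1403 CPM in stromal fibroblasts. Of these 9, 4 were higher and 3 lower in the members than in the fibroblasts in all 4 libraries. The androgenic theca population held only 19 cells in cKO 1.

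Genes that receive the Hedgehog signal were present in the members, and the ligands were scarce. The receptor Ptch1 was 330, 355, 413 and 551 CPM, against 145, 157, 92.9 and 166 CPM in stromal fibroblasts, so that each member value lay above each stromal one. Gli1, the target and effector whose transcript follows the pathway's activity, was 30.9, 26.9, 37.5 and 30.2 CPM against 16.9, 14.3, 13.8 and 17.4 CPM. The signal transducer Smo was 60.3, 76.1, 94.7 and 121 CPM in the members. Gli2 was 65.1, 97.8, 104 and 116 CPM and Gli3 was 48.9, 71.0, 71.9 and 86.2 CPM. Ihh was 3.11, 5.84, 1.75 and 4.97 CPM and Dhh was 1.41, 0.991, 2.0 and 1.18 CPM in the members, while the granulosa cells had Ihh at 79.9, 75.4, 64.2 and 127 CPM and Dhh at 18.1, 19.9, 41.2 and 45.7 CPM. The macrophages had Ihh at 9.82, 13.8, 6.78 and 6.01 CPM and Dhh at 3.27, 3.01, 6.78 and 2.77 CPM, above the members in each library. Shh was listed at 0 in the members. Of the 15 genes of the list, 5 were higher than in stromal fibroblasts in all 4 libraries, with Hhip, which the rule fixed, among them, and 3 were lower, against 22.1% and 25.0% of all genes.

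Other genes of the systems to which Enpep, Lamc3 and Tmem100 belong were also measured in the members. In the renin-angiotensin system, the substrate gene Agt was 82.3, 51.9, 109 and 63.6 CPM and the converting enzyme gene Ace was 23.9, 9.25, 24.1 and 23.5 CPM. Receptor transcripts were scarce, with Agtr1a at 2.54, 1.65, 1.0 and 2.76 CPM and Agtr1b at 0. Of the 14 genes of this list, 5 were higher and 5 lower than in stromal fibroblasts in all 4 libraries, against 22.1% and 25.0% of all genes. Enpep, which the rule fixed, was among the higher. Among basement membrane genes, the collagen IV chain Col4a1 was 848, 1425, 1268 and 1193 CPM against 335, 574, 445 and 376 CPM in stromal fibroblasts, and Col4a2 was 431, 811, 754 and 625 CPM against 206, 389, 259 and 259 CPM. Each member value of both genes lay above each stromal one. Of the 22 genes of the list, 8 were higher and 4 lower in the members than in stromal fibroblasts in all 4 libraries, against 22.1% and 25.0% of all genes. Lamc3, which the rule fixed, is 1 of the 8, and Lama1 was among the lower at 82.6, 131, 124 and 121 CPM against 172, 231, 166 and 203 CPM. The BMP target Id3 was 793, 672, 821 and 484 CPM in the members, and the receptor Bmpr2 was 182, 255, 295 and 240 CPM. Of the 28 genes of the BMP list, 4 were higher and 12 lower than in stromal fibroblasts in all 4 libraries, against the same shares of all genes. Tmem100, which the rule fixed, was among the higher. Gdf2 and Bmp10, the ligands of Alk1, were at 0. Of the nuclear receptors, Nr2f2 (COUP-TFII), a factor of mesenchymal cells, was 323, 266, 366 and 386 CPM and the oestrogen receptor Esr1 was 110, 172, 138 and 152 CPM. The aromatase gene Cyp19a1, whose promoter drives the Cre, was 6.50, 1.54, 1.25 and 0.553 CPM in the members and 29.5, 14.1, 3.79 and 5.08 CPM in macrophages.

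The promoters of the 8 genes were searched for a Gli motif (GACCACCCA) and an SF-1 motif (the letters of Nr5a1 binding, CAAGGTCA), on both strands of windows of 300 bases around the gene start taken from RefSeq. Neither was found in the 7 windows of the 6 genes that had one. Of all 32851 promoters, 0.253% held the Gli motif and 1.56% the SF-1 motif, so that most promoters hold neither.

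The members were not uniform. Clustering them at 2000 UMIs gave 9 subclusters, whose sizes are given as ranges of their share of clustered members over the 4 libraries. The most abundant over the pooled cells, 811 cells or 18.0% to 30.5%, was led by the chemokine genes Cxcl10, Ccl2 and Ccl11 and by Gbp5. In cKO 2, at 18.0%, it was smaller than the subclusters of 657, 650 and 570 cells described next. Another of 657 cells (17.4% to 20.8%) was led by Lhcgr, the luteinizing hormone receptor, and by Pak3, Gsta2 and Aldh1a1, and its summed steroid-producing genes lay between 2480 and 3877 CPM, against 797 to 1436 CPM in the subcluster led by Thbs4. Lhcgr stood there at 245, 299, 116 and 290 CPM, and over all members at 56.3, 91.2, 33.6 and 96.1 CPM. Cyp11a1 was 255, 648, 537 and 270 CPM in that subcluster, above the macrophages in cKO 2 alone. Its summed steroid-producing genes, at 2480, 3877, 3111 and 3247 CPM, lay above the 1231, 2165, 1509 and 911 CPM of stromal fibroblasts in each library. The macrophages had a sum of 1743, 5469, 3258 and 1384 CPM, above that subcluster in F/F 2 and cKO 1. The Thbs4 subcluster (650 cells, 17.7% to 22.5%) was also led by Col11a1, Mfap4 and Mfap5, genes of elastic and fibrillar matrix. One of 570 cells (14.6% to 20.9%) was led by Lgi2, Itga8, Col15a1 and Rasgrp2, and one of 230 cells by Nkain3, Tnc, Pcdh9 and Wt1. This last subcluster formed 3.72%, 4.11%, 10.8% and 11.3% of the clustered members, with both cKO libraries above both F/F libraries, and it rests on clustering that used the same cells, so the difference is a description with no test. Nkain3 and Pcdh9 were among the genes most in favour of stromal fibroblasts.

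The other 4 subclusters were led by genes of other cell types or were small. One of 164 cells (3.14% to 6.63%) was led by Mctp1, Nr5a2 and Arhgef28, with granulosa markers summed at 2688 to 3223 CPM. One of 119 cells (2.36% to 5.02%) was led by Rgs5, Notch3 and Cox4i2, genes of pericytes. One of 74 cells (1.52% to 2.88%) was led by the endothelial genes Cldn5, Flt1 and Ptprb, and one of 41 cells (0.589% to 1.87%) by the macrophage genes Lyz2, Cd74 and C1qa. Scrublet, a doublet caller, marked 38, 263, 30 and 55 members as likely pairs of cells, which is 6.73%, 18.4%, 5.87% and 6.43%, and these were kept in the values here. The number marked in a library was set by an assumed rate of 0.8% per 1000 cells, so the share in F/F 2 follows its cell count, and over all kept cells the shares were close, at 7.03%, 19.5%, 5.74% and 6.01%. The genes that varied most between cells of a library, by variance over mean at equal depth, were Malat1 at 15.5, Rgs5 at 11.7, Cd74 at 7.89, Acta2 at 7.05 and Csmd1 at 6.26. The median over 5346 genes was 1.05. Asb4 was the one gene of the selecting 8 among the 15 most variable, at 4.77.

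The members were next compared between the cKO and the F/F libraries. The members formed 6.44%, 5.87%, 7.12% and 11.4% of the kept cells, with exact 95% binomial intervals of 5.93 to 6.97, 5.58 to 6.17, 6.54 to 7.74 and 10.7 to 12.1, which cover counting error only. Both cKO libraries lay above both F/F libraries, and cKO 1 was close to F/F 1. The means were 6.15% ± 0.398 (SD, n = 2) in F/F and 9.26% ± 3.03 (SD, n = 2) in cKO, a difference of 3.11 percentage points. The exact two-sided permutation test gave p = 0.33, the smallest value that 2 libraries against 2 allow. Every cell was then thinned to 2000 UMIs and 2 of the 8 genes were asked for, with the other limits kept as they were. At that depth, limits counted in UMIs or detected genes are easier to meet, and 659, 2280, 538 and 1077 cells were chosen. Their shares were 8.04%, 11.5%, 7.84% and 15% and the groups overlapped (exact permutation p = 1.0). The groups also overlapped without the subcluster led by Nkain3, at 6.63%, 6.73%, 6.61% and 10.6% of the cells of at least 2000 UMIs. There cKO 1 lay below both F/F libraries. That subcluster was chosen after its larger share of the cKO members had been seen. Leaving it out lowers the cKO shares more than the F/F shares by construction, so this overlap is a description. A share depends also on how many other cells each ovary yielded, and this was not tested.

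**Figure D3:**
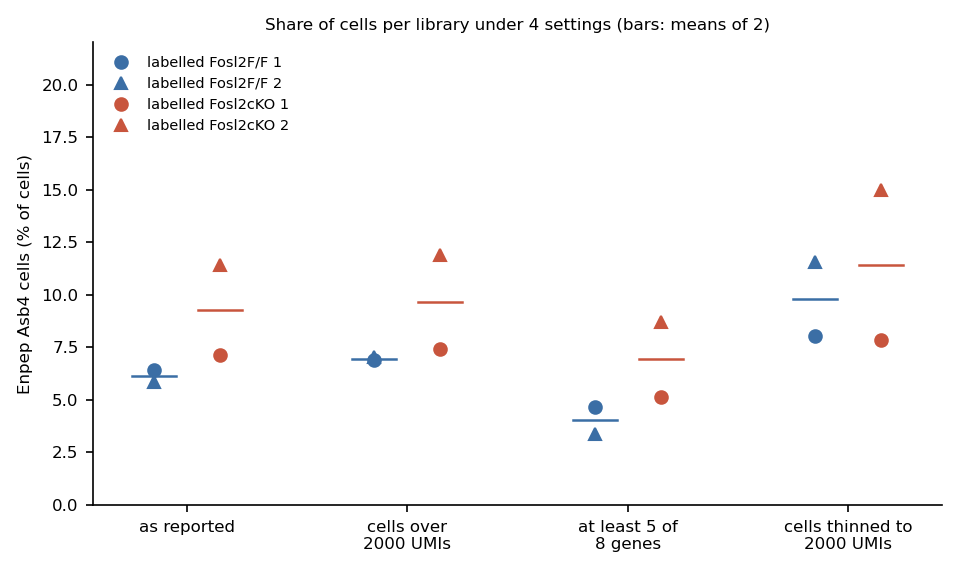
Share of kept cells that were Enpep Asb4 cells, in percent, with 1 point for each library under the rule as used and under 3 other settings. Under the rule as used the F/F libraries lie at 6.44% and 5.87% and the cKO libraries at 7.12% and 11.4%, and after thinning the groups overlap.

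Expression was compared on the summed UMIs of the members of each library with edgeR's quasi-likelihood test, where a gene passed when its p adjusted by Benjamini-Hochberg was under 0.1 and its log2 fold change exceeded 0.25 in size. The labels do not say how many mice a library holds, so p-values measure the spread between 2 libraries of a group. Of 14156 genes tested, 30 passed (0.212%), of which 22 were higher in cKO (0.155%) and 8 were lower (0.0565%). At an unadjusted p under 0.05 there were 896 genes (6.33%). Groups that did not overlap were far more frequent, with 20.4% of genes higher in both cKO libraries than in both F/F libraries and 14.3% lower. The number of calls changed with the library left out. Without F/F 1, or without F/F 2, 1 gene passed, Plb1, while 228 passed without cKO 1 and 184 without cKO 2. The log2 fold change of Cebpd was 2.31 without F/F 1 and 2.06 without F/F 2, against 2.19 with all 4 libraries, that of Ier5 was 1.61 and 1.66 against 1.64, and that of Scand1 was 1.73 and 2.80 against 2.16. With the marked doublets removed 15 passed. Without the subcluster led by Nkain3, a set of cells chosen after the values had been seen, 18 passed, all of them among the 30.

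Plb1, a phospholipase B gene, had the lowest adjusted p. It was 0.141 and 0.330 CPM in F/F and 65.1 and 71.1 CPM in cKO, a log2 fold change of 7.97 (SE 0.41, edgeR adjusted p = 1.35e-06). In counts this was 4 UMIs against 1422. Plb1 was also higher in cKO than in F/F in the other populations, at 1.11, 0.420, 26.6 and 16.6 CPM in stromal fibroblasts, 0.352, 0.169, 316 and 453 CPM in interstitial cells and 0.0622, 0.0641, 946 and 312 CPM in granulosa cells. The macrophages had it at 0, 0, 144 and 32.3 CPM. After thinning, a Plb1 UMI was found in 3.34% and 3.39% of the cKO members. In the mouse genome (GRCm38), Plb1 lies on the plus strand at chr5:32232708-32366520. Fosl2 lies just upstream on the same strand at chr5:32135801-32157842, and the start of Plb1 is 74866 bases past the end of Fosl2. How much of the members' Plb1 came from their own transcription and how much from RNA of other cells in the droplets was not tested.

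Of the other genes that rose, Gal3st3, given further on, had the lowest p in edgeR and Cebpd the next. Cebpd, a transcription factor induced by inflammatory signals, was 75.5, 69.6, 432 and 264 CPM (log2 fold change 2.19, SE 0.30, adjusted p = 0.0155), and both cKO libraries lay far above both F/F libraries. A Cebpd UMI was found in 13.3%, 12.3%, 50.7% and 31.2% of thinned members. Stromal fibroblasts had it at 50.02, 88.7, 395 and 375 CPM. Ier5, an immediate early gene, was 20.2, 23.0, 59.6 and 82.2 CPM (log2 fold change 1.64, SE 0.25, adjusted p = 0.0352). Dbp, a clock-controlled transcription factor, was 11.4, 10.0, 42.7 and 29.3 CPM (log2 fold change 1.67, adjusted p = 0.0607). Under the rule on thinned cells Dbp was at 1.62 and did not pass (edgeR adjusted p = 0.152). Scand1 was 15.8, 36.6, 121 and 123 CPM (log2 fold change 2.16, SE 0.32, adjusted p = 0.0287), and Eif3f, a subunit of the translation initiation complex, was 134, 148, 401 and 505 CPM (log2 fold change 1.61, SE 0.26, adjusted p = 0.0390). In stromal fibroblasts Ier5 was 23.5, 27.0, 64.2 and 130.4 CPM, Dbp was 11.9, 11.6, 48.6 and 51.1 CPM, Scand1 was 16.6, 32.5, 103 and 109 CPM and Eif3f was 117, 143, 349 and 477 CPM. The F/F pair and the cKO pair did not overlap in either population for any of these genes. In the members this is true of 20.4% of all tested genes in this direction. The genes were named for their calls in the members, so for that population it is a description. Higher levels in both cKO libraries were not limited to these 2 populations. Of the 22 genes called higher in the members, 20 were higher without overlap in stromal fibroblasts, 18 in interstitial cells and 18 in granulosa cells. The same held for 16 in androgenic theca cells and 16 in macrophages, and at most 1 was lower without overlap in any of them. No share over all genes is given for these other populations. Eif3f was 125, 133, 293 and 355 CPM in interstitial cells, 106, 141, 339 and 456 CPM in granulosa cells and 98.9, 139, 297 and 391 CPM in macrophages. Scand1 was 22.5, 42.5, 139 and 140 CPM, 12.4, 28.8, 87.1 and 96.7 CPM and 20.3, 40.2, 127 and 178 CPM in the same 3 populations. Cebpd, at lower levels there, was 7.74, 13.4, 71.6 and 78.9 CPM, 4.0, 8.47, 13.6 and 15.8 CPM and 7.86, 19.1, 42.1 and 91.0 CPM.

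Sfrp1, a secreted Wnt inhibitor, was 24.6, 25.1, 67.2 and 81.7 CPM (log2 fold change 1.51, SE 0.24, adjusted p = 0.0352). Nbl1 (DAN), a BMP antagonist, was 23.3, 32.0, 104 and 66.0 CPM (log2 fold change 1.55, adjusted p = 0.0643), Npr3, the clearance receptor for natriuretic peptides, was 22.5, 25.4, 54.1 and 64.4 CPM (log2 fold change 1.24, adjusted p = 0.0890), and Sema3d, a guidance cue, was 3.39, 5.84, 25.5 and 15.6 CPM (log2 fold change 2.07, adjusted p = 0.0607). With at least 5 of the 8 genes Sema3d was at 1.15 (adjusted p = 0.768), and under the rule on thinned cells it was at 0.91 and Npr3 at 0.69, neither past the threshold. Sfrp1 at 1.14 and Nbl1 at 1.15 did not pass under that rule either. In stromal fibroblasts Sfrp1 was 101.97, 82.3, 160 and 280 CPM, Nbl1 was 82.1, 112, 222 and 220 CPM and Npr3 was 68.3, 66.6, 77.6 and 197 CPM, each higher in both cKO libraries there too. Without the subcluster led by Nkain3, the log2 fold change of Npr3 in the members was 0.89 (adjusted p = 0.414), that of Nbl1 was 1.45 (adjusted p = 0.161) and that of Sfrp1 was 1.32 (adjusted p = 0.0909). The complement gene C3, among the genes most in favour of stromal fibroblasts over members, was 0.706, 2.20, 13 and 8.29 CPM in the members (log2 fold change 2.75, adjusted p = 0.0607) and 28.7, 39.5, 140 and 88.8 CPM in those fibroblasts. Without that subcluster its log2 fold change was 2.08 (adjusted p = 0.388), and with at least 3 of the 8 genes it was 1.43 (adjusted p = 0.392). Glrx5, which serves iron-sulphur cluster assembly, was 17.5, 20.7, 49.4 and 91.7 CPM (log2 fold change 1.81, adjusted p = 0.0450), Rab5if was 22.6, 37.7, 80.2 and 128 CPM, Grasp was 16.2, 21.3, 44.9 and 72.9 CPM and Ywhah was 50.7, 54.4, 117 and 148 CPM. Glrx5 was 17.7, 19.9, 40.2 and 53.8 CPM and Ywhah was 58.9, 41.3, 127 and 156 CPM in stromal fibroblasts. Pdcd2, Bloc1s4, Tmem160, Rfxap and Ccdc102a were also called higher. Under the rule on thinned cells these genes, C3, Grasp and Ywhah did not pass. With the marked doublets removed, Bloc1s4, Tmem160, Rfxap, Ccdc102a, C3, Grasp, Ywhah, Npr3 and Sema3d did not pass. Gal3st3 had no UMI in F/F and 4.62 and 4.5 CPM in cKO, at least 24.5-fold higher when F/F is set at 3 UMIs over the group, and Gm45194 was at 0 in F/F and at 1.87 and 1.74 CPM, at least 9.65-fold higher. With at least 3 of the 8 genes Gm45194 had a log2 fold change of 3.18 (adjusted p = 0.183), and its call was also lost without the subcluster led by Nkain3 (adjusted p = 0.124).

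**Figure D4:**
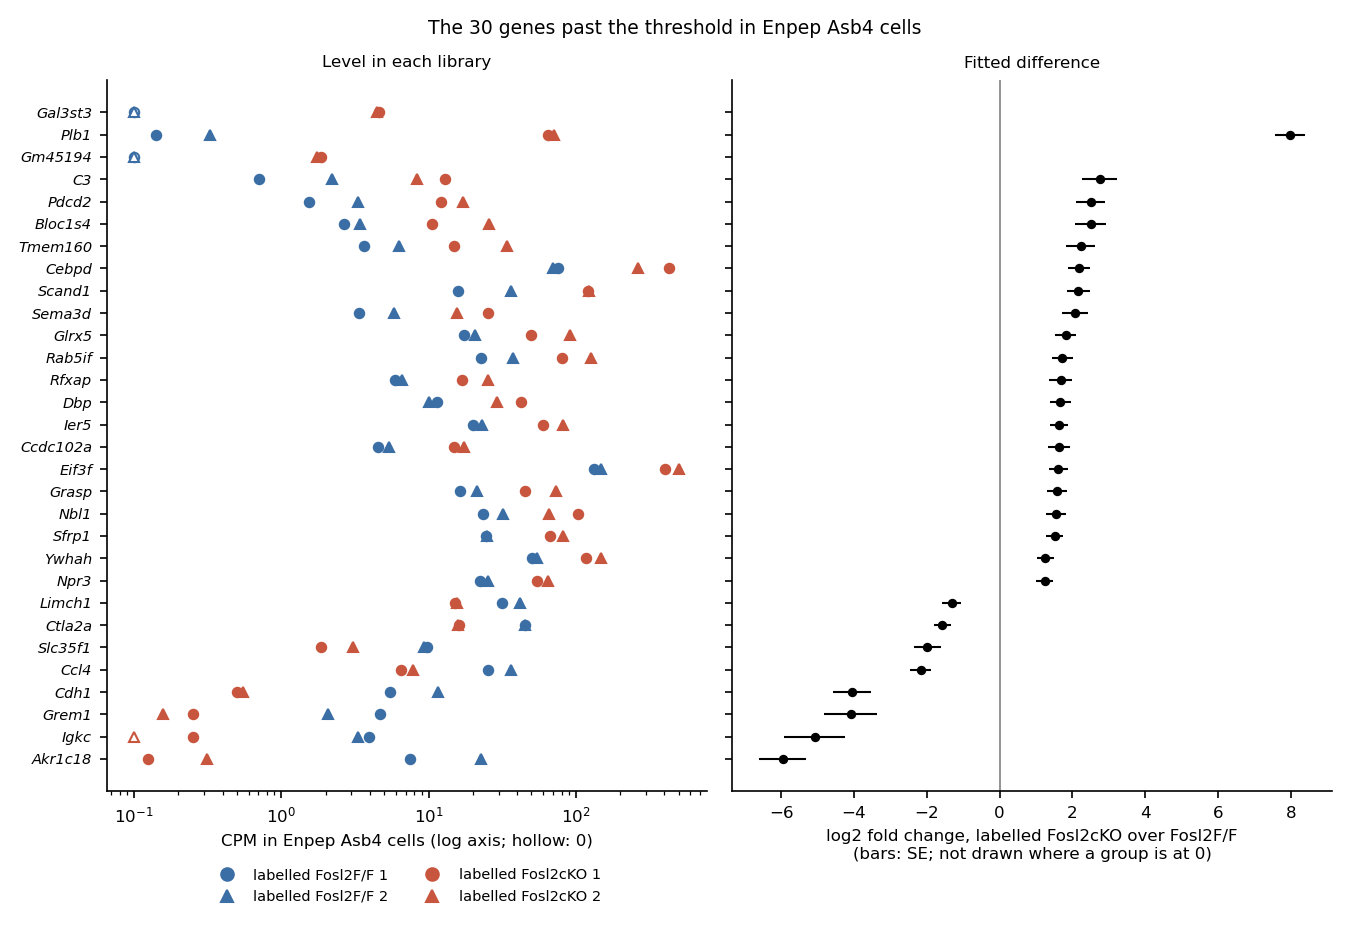
The 30 genes past the threshold, with the level in each library in CPM (log axis) and the fitted log2 fold change with its standard error, cKO against F/F. No fitted value is drawn for Gal3st3 and Gm45194, which had no UMI in F/F, and the 22 genes higher in cKO range up to Plb1 at 7.97.

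Several of the genes that fell were low in the members and far higher in other cell types. Akr1c18, the enzyme that inactivates progesterone in the corpus luteum, was 7.48, 22.6, 0.125 and 0.316 CPM (log2 fold change -5.95, SE 0.65, adjusted p = 0.00451), and 546, 95.03, 5.03 and 0 CPM in interstitial cells. Cdh1 (E-cadherin) was 5.51, 11.7, 0.50 and 0.553 CPM (log2 fold change -4.05, adjusted p = 0.0155). Grem1, a BMP antagonist of granulosa cells, was 4.66, 2.09, 0.25 and 0.158 CPM (log2 fold change -4.09, adjusted p = 0.0665), and 214, 37.6, 17.4 and 28.1 CPM in granulosa cells. Igkc, an immunoglobulin light chain of plasma cells, was 3.95, 3.30, 0.25 and 0 CPM (adjusted p = 0.0450). At a clustering resolution of 0.8, Cdh1 was among the leading genes of a subcluster with the epithelial genes Krt18, Krt19 and Lgals7. The chemokine Ccl4 was 25.3, 36.3, 6.50 and 7.82 CPM (log2 fold change -2.16, SE 0.29, adjusted p = 0.0155), and its levels in macrophages were 765, 1116, 1168 and 2211 CPM. Limch1 was 31.8, 41.7, 15.2 and 15.6 CPM (log2 fold change -1.32, SE 0.25, adjusted p = 0.0922) and Slc35f1 was 9.74, 9.25, 1.87 and 3.08 CPM (log2 fold change -1.98, adjusted p = 0.0922). Ctla2a, a protease inhibitor gene whose highest level lay in the endothelial subcluster, was 45.2, 44.9, 16.1 and 15.9 CPM (log2 fold change -1.57, SE 0.24, adjusted p = 0.0352). Some of these calls were lost under other forms of the rule. With at least 3 of the 8 genes Slc35f1 was at -0.54 (adjusted p = 0.846), Cdh1 at -1.73 (adjusted p = 0.125) and Igkc at -1.80 (adjusted p = 0.831), and under the rule on thinned cells Slc35f1 was at -0.75, Igkc at -1.31, Ccl4 at -1.24 and Ctla2a at -0.66, none past the threshold.

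Several endothelial, granulosa, epithelial and oocyte markers also lay lower in both cKO libraries without passing the test, and their part in these falls was not tested beyond the values given next. The 8 endothelial markers summed to 368, 474, 273 and 257 CPM in the members, none of them at 0 over the 4 libraries, and 6 of the 8 were lower in both cKO libraries. In stromal fibroblasts they summed to 59.7, 82.8, 47.7 and 53.1 CPM. The 10 granulosa markers summed to 829, 718, 530 and 585 CPM, with 5 of 10 lower in both cKO libraries. Of the 8 epithelial markers 5 were lower without overlap, as were 3 of the 5 oocyte markers tested and 4 of the 10 cell cycle genes, against 14.3% of all genes. The cell cycle list includes the 4 cycling genes that the rule limited in each member, so its count is in part set by the rule. The 8 macrophage markers had a median log2 fold change of 0.23, with 5 positive and 3 negative, but this was -0.53 to 0.91 over the settings tried and their sums overlapped between the groups. Of these 8, 1 was higher and 0 lower without overlap, and the 9 pericyte markers had 1 higher and 1 lower. In edgeR 0 of these markers passed, and Akr1c18 was the 1 call among the 5 luteal markers. In the members without the subclusters led by markers of other cell types, a set of cells chosen after the values had been seen, which leaves out 12.6%, 14.3%, 7.66% and 10.5% of the cells, 18 genes passed and all 18 were among the 30. Ctla2a then had a log2 fold change of -1.54 (adjusted p = 0.404), Limch1 -0.83 (adjusted p = 0.912) and Ccl4 -0.11 (adjusted p = 0.984). With doublets removed, Ccl4 was at -0.42 (adjusted p = 0.940). Genes of at least 20 CPM that lay lower in both cKO libraries without passing included Mecom at 40.4, 73.4, 23.7 and 24.5 CPM (log2 fold change -1.30, adjusted p = 0.130), Flt1 at 38.0, 106, 24.5 and 23.0 CPM (-1.65, adjusted p = 0.147) and Esam at 45.7, 51.1, 25.0 and 25.5 CPM (-1.01, adjusted p = 0.177), all genes expressed in endothelium. These 3 passed in DESeq2.

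The 8 selecting genes had log2 fold changes between the groups from -0.43 for Spats2l to 0.15 for Hhip, given as a description because members had been required to hold several of them. Fosl2 in the members was 224, 332, 312 and 188 CPM (log2 fold change -0.21, SE 0.30, adjusted p = 0.983), with cKO 1 between the F/F libraries and cKO 2 below both. Of the 14 AP-1 genes tested, the family of Fosl2 that pairs Fos and Jun proteins, 0 passed in edgeR (2 at an unadjusted p under 0.05) and 0 in DESeq2, a second count test. Their median log2 fold change was 0.09, against -0.005 over all genes, and turned to -0.33 without cKO 1. Jund was 212, 212, 339 and 1152 CPM (log2 fold change 1.74, SE 0.43, adjusted p = 0.222), with cKO 2 far from the other 3 libraries. The same library was the highest in stromal fibroblasts, at 285, 258, 436 and 1808 CPM, and in granulosa cells, at 221, 201, 278 and 1034 CPM. Fos was 2663, 2948, 3173 and 1873 CPM and Junb was 2157, 1805, 2506 and 1149 CPM, lowest in cKO 2 in both cases.

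Of the 14 Hedgehog genes tested, 0 passed in edgeR or DESeq2, and 1 had an unadjusted p under 0.05. In 7 both cKO libraries lay above both F/F libraries and in 0 below, against 20.4% and 14.3% of all genes. The median log2 fold change of the 14 was 0.27. Ptch1 had a log2 fold change of 0.42 (SE 0.26, adjusted p = 0.931), Smo one of 0.59 (SE 0.24, adjusted p = 0.654), Gli2 one of 0.37 (adjusted p = 0.945) and Gli3 one of 0.34 (adjusted p = 0.955). A Ptch1 UMI was found in 39.4%, 44.7%, 46.6% and 53.6% of thinned members. Of the 24 stromal matrix genes, 13 were higher in both cKO libraries and 1 was lower, at a median of 0.17, and 0 passed in edgeR (2 at an unadjusted p under 0.05) or DESeq2. Without F/F 2 this median was -0.02. The laminin chain Lama2 was 867, 1079, 1191 and 1582 CPM (log2 fold change 0.44, adjusted p = 0.936). Of 20 basement membrane genes 8 were higher and 2 lower without overlap, at a median of 0.14, and 0 passed in either test, with 1 in each direction at an unadjusted p under 0.05.

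**Figure D5:**
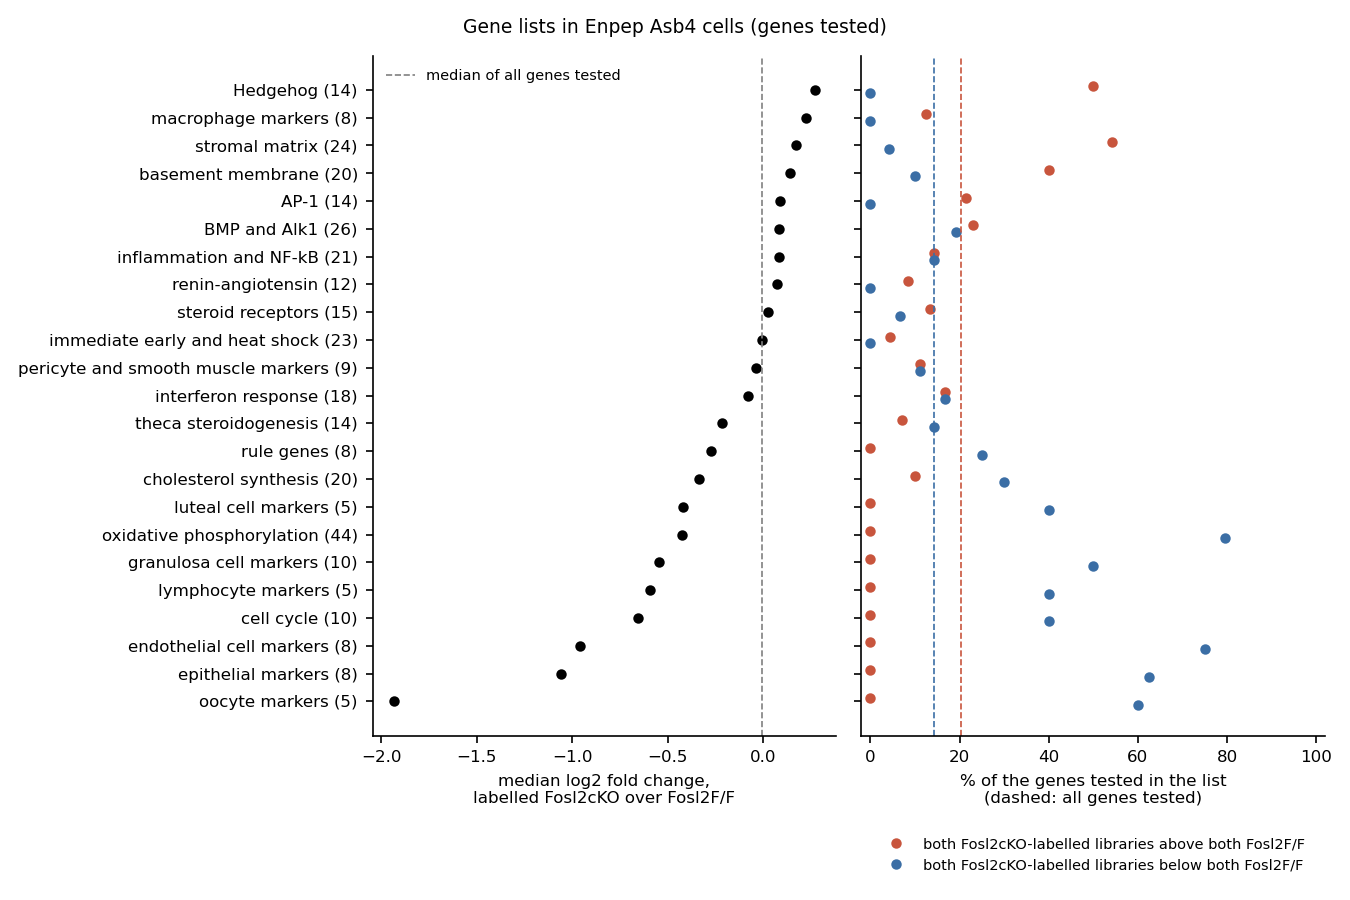
Median log2 fold change of each gene list, cKO against F/F, and the percent of its tested genes whose groups did not overlap, beside all genes tested. The oxidative phosphorylation list lies at -0.43 with 35 of 44 genes lower in both cKO libraries, and the Hedgehog list at 0.27.

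The oxidative phosphorylation genes, subunits of the mitochondrial respiratory chain, were the list with the most genes on one side. Of 44 tested, 35 were lower in both cKO libraries and 0 were higher, against 14.3% and 20.4% of all genes, and the median log2 fold change was -0.43. None passed in edgeR or DESeq2 (0 genes), and 10 had an unadjusted p under 0.05 in edgeR, all 10 lower in cKO. The median was -0.29 to -0.61 when single libraries were left out. Cox4i1 was 915, 800, 650 and 679 CPM (log2 fold change -0.45, adjusted p = 0.922), and Cox6c was 915, 712, 542 and 668 CPM (log2 fold change -0.51, adjusted p = 0.917). The sum over the list was 11089, 9624, 7899 and 8614 CPM. In the other populations the same sum was 9525, 7891, 6945 and 6006 CPM in stromal fibroblasts, 15750, 13178, 12067 and 11598 CPM in interstitial cells, 13441, 12659, 10978 and 11670 CPM in granulosa cells and 11537, 9811, 8511 and 8145 CPM in macrophages. It was thus lower in both cKO libraries in each of these populations as well. In the androgenic theca cells it was 16878, 11642, 10400 and 11858 CPM, and the groups overlapped. What the libraries share in this was not tested. Of the 20 cholesterol synthesis genes 6 were lower and 2 higher without overlap, at a median of -0.34, and of the 14 genes of theca steroidogenesis 2 were lower and 1 higher, at a median of -0.22. Cyp17a1, which the rule limited, was 1 of those 2 lower genes. Both lists had 0 calls in edgeR and DESeq2, with 2 and 1 genes lower at an unadjusted p under 0.05.

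Inflammatory and BMP genes each held 1 called member. Of 21 inflammation genes tested 3 were higher and 3 lower without overlap (14.3% each way), with Cebpd the one past the test. The adhesion gene Icam1, which acts downstream of NF-kB, was 190, 183, 429 and 189 CPM, highest in cKO 1. Of 26 BMP genes 6 were higher and 5 lower (23.1% and 19.2%), and Grem1 passed. By this measure both lists lay near the 20.4% and 14.3% of all genes. In edgeR, 1 inflammation gene was higher and 4 were lower at an unadjusted p under 0.05. Of the BMP genes 3 were higher and 2 lower at that limit, against 6.33% of all genes in either direction. Smad7, an inhibitor of the pathway, was 27.7, 37.0, 55.9 and 67.5 CPM (log2 fold change 0.86, SE 0.24, adjusted p = 0.282). The median of the 12 renin-angiotensin genes was 0.07 and that of the 15 steroid receptor genes 0.03, with 0 past edgeR or DESeq2 in both. At an unadjusted p under 0.05 there were 1 in each direction of the first and 0 of the second. The 18 interferon response genes had a median of -0.08 and the 23 immediate early and heat shock genes one of -0.01, with 0 past edgeR in both (1 and 2 at an unadjusted p under 0.05) and 0 and 1 past DESeq2. Over the settings tried these 2 medians ran from -0.47 to 0.14 and from -0.43 to 0.29, lowest without cKO 1 and highest without cKO 2, and those of the renin-angiotensin, steroid receptor, inflammation, BMP and theca steroidogenesis lists also took both signs.

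The test of whether a gene answered the condition differently in members and in stromal fibroblasts, with the library as a block, gave 20 of 14713 genes (0.136%). Of these, 15 had a lower fold change in the members. They included macrophage genes. Lgals3 was 22.2, 17.8, 15.5 and 11.3 CPM in the members and 24.0, 29.2, 169 and 93.0 CPM in stromal fibroblasts (log2 difference -2.89, adjusted p = 0.00946), and the macrophages had it at 789 to 4047 CPM. Macrophage markers summed to 62.8, 126, 108 and 129 CPM in the members and to 42.6, 148, 520 and 211 CPM in stromal fibroblasts, so that the rise lay on the fibroblast side. The part these transcripts play in the difference was not tested. The 5 genes with a higher fold change in the members were Hsd17b7, a cholesterol synthesis enzyme (log2 difference 1.79, adjusted p = 0.0514), Arhgef28 (1.54), Peg10 (1.39), Nr5a2 (1.11) and Ank3 (1.03). Arhgef28 and Nr5a2 led the subcluster with granulosa markers, and Ank3 was among the leading genes beside them at a resolution of 0.8. Granulosa markers summed to 1472, 1195, 648 and 799 CPM in stromal fibroblasts and to 829, 718, 530 and 585 CPM in the members, and their part in these differences was not tested. Against interstitial cells, edgeR called 0 of 15008 genes, with 720 at an unadjusted p under 0.05. Plb1 did not pass in either test, with a log2 difference of 2.95 (adjusted p = 0.760) against stromal fibroblasts and -2.73 (adjusted p = 0.896) against interstitial cells.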

How the data were processed

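Whole ovaries were dissociated and profiled with the 10x Genomics 3′ assay in 4 libraries. The authors made the deposited counts, UMIs for each of 32285 genes in each barcode, with Cell Ranger against mouse GRCm38 (the methods name version 3.1.0, the matrix headers 7.1.0) and, per the methods, removed ambient RNA with CellBender. The values were whole numbers, and whether the deposited matrices precede or follow that step is not given in the sources used here. Library totals were 123493207, 148836173, 124979060 and 120327227 UMIs. Cells with at least 500 genes, over 1000 UMIs and under 10% mitochondrial UMIs were kept.

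Members and comparison populations were rebuilt from the marker rules, UMIs were summed for each library, and the groups were compared in edgeR 4.0.16 (filterByExpr, TMM, quasi-likelihood F-test, R 4.3.3), with DESeq2 1.42.0 as an alternative. The interaction fits held the library as a block. Members were thinned to 2000 UMIs and clustered with scanpy 1.11.5 (1500 variable genes, 15 components, 15 neighbours, Leiden resolution 0.5). Doublets marked by Scrublet were kept. The genes named were the 8 selecting genes, Fosl2, Plb1, up to about 4 genes of each of 25 lists, the leading genes and the strongest calls; Scarb1, Cyp19a1, Icam1 and some markers were named for their function. The members and lists were chosen with earlier results of these data known. Scripts were tested on simulated data. Some genes of these lists are not reported here.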

Additional observations from a re-analysis of the deposited data

Results flagged for a closer look

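The fold change between cKO and F/F differed between Enpep Asb4 cells and stromal fibroblasts for 20 genes, by the interaction test. The 5 with the lowest p all had a lower fold change in the members. The log2 differences were -2.89 for Lgals3, -3.40 for Cd36, -1.56 for Cd74, -2.11 for H2-Aa and -2.33 for Unc5c, with edgeR adjusted p = 0.00946, 0.00946, 0.0261, 0.0261 and 0.0347. Cd36, a fatty acid and lipoprotein receptor, was 8.90, 7.49, 4.62 and 4.26 CPM in the members and 5.80, 7.14, 40.4 and 32.0 CPM in stromal fibroblasts. Cd74, the invariant chain of antigen presentation, was 39.8, 113, 32.4 and 33.1 CPM against 50.6, 137, 126 and 100 CPM. H2-Aa, a class II chain, was 20.9, 53.4, 15.7 and 24.2 CPM against 17.7, 64.9, 81.2 and 90.8 CPM. Unc5c, a netrin receptor that is no macrophage marker, was 12, 14.8, 14.2 and 9.16 CPM against 6.08, 11.5, 46.4 and 27.5 CPM, and 1.31, 4.02, 2.79 and 21.3 CPM in macrophages. Ctss, H2-Ab1, Tyrobp and Cybb, genes of macrophages, were also among the 20.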

How the results depend on the processing

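The count of genes past the threshold, 30 in the members, was 15 with doublets removed, 58 with at least 5 of the 8 genes, 10 when the rule was applied to thinned cells, 388 with no filter on low counts, 94 with DESeq2 and 14 at an adjusted p under 0.05 with no minimum fold. Settings chosen after seeing the data gave 18 without the subclusters led by markers of other cell types, 18 without the one led by Nkain3 and 46 with the GC trend removed. Leaving out 1 library gave 1 to 228, with 1 (Plb1) without F/F 1 or F/F 2, 228 without cKO 1 and 184 without cKO 2. The remaining library of a group was then assumed to vary like the other group. With DESeq2 size factors, over 2000 UMIs, under 5% mitochondrial UMIs, under 0.1% hemoglobin UMIs and at least 3 of the 8 genes the count was 30, 31, 28, 30 and 23. Wherever the 30 genes were tested they kept their direction. The causes of these changes were not tested. The rule on thinned cells asked for 2 of the 8 genes and kept the other limits unchanged, so it chose a different set of cells. A replicate block on the library numbers gave 160 genes, but the numbers did not pair the libraries (correlation of deviations -0.124), and a block with the numbers crossed gave 346.

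The share of members kept its direction in each setting, with a log2 ratio of 0.59 under the rule as used. It was 0.21 without cKO 2 and 0.89 without cKO 1. The groups overlapped under the rule on thinned cells, at 0.22, and without the subcluster led by Nkain3, at 0.36. That subcluster was chosen after the values had been seen. The interaction with stromal fibroblasts gave 277 genes with no filter, 9 at an adjusted p under 0.05 and 117 to 193 when single libraries were left out (117 without F/F 1, 191 without F/F 2, 143 without cKO 1 and 193 without cKO 2). That with interstitial cells gave 251 with no filter and 0 to 27 when single libraries were left out, 27 without F/F 2. Clustering gave 16 subclusters at resolution 0.8 and 8 at 0.3. Directions turned for genes that had passed no test. Asb4 was 0.035 and Enpep 0.107 under the thinned rule, Lamc3 was -0.042 with doublets removed, -0.0439 with at least 3 genes and -0.0561 without the subclusters of other types, and Hhip was -0.0086 with at least 3 genes. With single libraries left out, Fosl2 ranged from -0.633 to 0.114, Asb4 from -1.03 to 0.124, Enpep from -0.398 to 0.108, Lamc3 from -0.0457 to 0.101, Hhip from -0.285 to 0.484 and Tmem100 from -0.952 to 0.0451.

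With 2 libraries in a group, the count of calls changed with the library left out. The depth of F/F 2 limits which genes its cells show. Genes under about 1 CPM rest on few UMIs in a library.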
